A study of Mus musculus with 4 samples.

Results

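The genes followed here were 10 receptors of the TNF receptor superfamily, Tnfrsf1a, Tnfrsf1b, Tnfrsf4, Tnfrsf9, Tnfrsf18, Tnfrsf25, Tnfrsf26, Ltbr, Cd40 and Fas, in cells of the small intestinal lamina propria of WT and A20ZF7 mice. They were taken by name, and all 10 were found by gene identifier among the 31950 gene identifiers shared by both gene expression libraries. A20ZF7 mice are knock-ins that are homozygous for point mutations in the zinc finger of A20 that binds linear ubiquitin chains, so every cell type carries the change, and WT mice have unaltered A20. Each genotype was a single library of 5′ single-cell RNA from cells pooled from 2 mice aged 12 weeks, prepared with a negative selection meant to leave T cells and innate lymphoid cells (ILCs). With 1 library per genotype no difference between genotypes could be tested, and the intervals given below are 95% exact intervals that cover counting error only.

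Receptors of this family are trimeric surface proteins that pass the signal of a TNF-like ligand to the cell. Members with a death domain, here Tnfrsf1a, Fas and Tnfrsf25, can recruit adaptors that lead to NF-κB signalling or to cell death, whereas the other well studied members bind TRAF adaptors, and in lymphocytes several of them act as co-stimulatory receptors that appear on activated and regulatory T cells. A20, encoded by Tnfaip3, is a ubiquitin-binding and ubiquitin-editing enzyme that restrains signalling from these receptors.

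Several members lie side by side in the mouse genome (mm10, GENCODE annotation). Tnfrsf4 (ENSMUSG00000029075) and Tnfrsf18 (ENSMUSG00000041954), which encode OX40 and GITR, were annotated on the plus strand of chromosome 4, at bases 156013843 to 156016612 and 156026164 to 156028895, with 9551 bases between them. Tnfrsf9 (ENSMUSG00000028965), encoding 4-1BB, was annotated on the plus strand of the same chromosome at bases 150914562 to 150946102, and Tnfrsf1b and Tnfrsf25 were on chromosome 4 as well. Tnfrsf1a and Ltbr were on chromosome 6 with 35476 bases between them, Cd40 was on chromosome 2, Fas on chromosome 19, and Tnfrsf26 on chromosome 7 beside Tnfrsf22 and Tnfrsf23. The promoters of Tnfrsf4, Tnfrsf18 and Tnfrsf9, the co-stimulatory receptors of this chromosome that were led by regulatory T cells below, are shown from 250 bases before to 50 bases after a RefSeq start on GRCm38.p6, read 5′ to 3′ on the plus strand, with a match to the consensus of NF-κB, the transcription factor that these receptors activate, in capitals.
Tnfrsf4, chr4:156013445-156013744: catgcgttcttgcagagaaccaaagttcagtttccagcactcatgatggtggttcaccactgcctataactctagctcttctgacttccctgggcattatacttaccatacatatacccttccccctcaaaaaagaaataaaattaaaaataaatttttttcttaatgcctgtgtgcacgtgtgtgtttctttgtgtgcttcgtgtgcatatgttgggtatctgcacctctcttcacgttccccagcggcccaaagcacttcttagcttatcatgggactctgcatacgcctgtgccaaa
Tnfrsf18, chr4:156026072-156026371: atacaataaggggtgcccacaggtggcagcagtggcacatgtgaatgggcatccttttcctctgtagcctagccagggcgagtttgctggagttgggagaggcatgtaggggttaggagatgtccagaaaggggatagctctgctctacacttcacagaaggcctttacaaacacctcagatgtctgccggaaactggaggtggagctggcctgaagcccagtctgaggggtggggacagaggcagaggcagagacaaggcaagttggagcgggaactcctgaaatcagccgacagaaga
Tnfrsf9, the second of its starts, chr4:150927749-150928048: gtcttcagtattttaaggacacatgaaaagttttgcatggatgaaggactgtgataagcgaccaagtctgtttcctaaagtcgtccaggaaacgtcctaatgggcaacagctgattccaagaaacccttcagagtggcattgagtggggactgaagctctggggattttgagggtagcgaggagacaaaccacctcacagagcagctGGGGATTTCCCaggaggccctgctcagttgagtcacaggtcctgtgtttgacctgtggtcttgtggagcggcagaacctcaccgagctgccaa
The capitals mark 2 overlapping registers of the consensus, read on both strands, which begin 43 and 42 bases before the start. RefSeq promoters were found for 8 of the 10 members, 10 promoters in all, and 1 of the 10 held the NF-κB consensus, against 4.51% of 32851 mouse promoters. The AP-1 motif TGANTCA, also read on both strands and not overlapping the NF-κB match, was in 2 of the 10 promoters, this Tnfrsf9 promoter and that of Fas, against 7.81% of all promoters. These are matches of letters only.

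The WT library gave 14722 cells with a median of 1060 UMIs, and the A20ZF7 library gave 43218 cells with a median of 853 UMIs. Cells were clustered without the 10 receptor genes and named by marker lists, so that each name stands for cells like that type. Over both libraries, 23 of 24 readings of 12 marker lists were highest in the class they define, the exception being the endothelial list in WT. The same lists had named the clusters, so this count is not an independent check of the names. Stromal cells made up 7792 WT and 15883 A20ZF7 cells and T cells 2235 and 16019, although the selection was meant to leave lymphocytes. The B lineage class held plasma cells alone. The libraries shared 2101 cell barcodes, and they differed in the RNA of T cells that other classes carried: the sum of 5 T cell genes (Cd3e, Cd3d, Cd3g, Trac and Trbc2) in stromal cells was 329 counts per 1000000 UMIs of the class (CPM) in WT and 1008 CPM in A20ZF7, which was 11.4% and 37.3% of the level in T cells. Tnfaip3 mRNA was 1513 CPM in WT and 1474 CPM in A20ZF7 T cells. The mutations change the protein and not necessarily its mRNA, so this level does not check the genotype labels.

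The receptors divided into members that were highest in T cells, members that were highest in stromal cells and single members led by ILCs or by myeloid cells. Levels below are CPM, and the classes were compared for each gene separately. In WT, 5 of the 10 members were highest in T cells among T cells, ILCs, B lineage, myeloid and stromal cells, and in A20ZF7 6 were. Tnfrsf1b, Tnfrsf4, Tnfrsf9 and Tnfrsf18 were each highest in regulatory T cells in both libraries among 16 cell classes.

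Tnfrsf1a, encoding the widely expressed receptor TNFR1 that carries a death domain, was highest in fibroblasts. Its level there was 147 CPM in WT and 141 CPM in A20ZF7. Endothelial cells followed at 113 and 87.7 CPM, and T cells as a whole were at 29.2 and 18.2 CPM. Stromal cells held 80.6% of the WT UMIs of Tnfrsf1a and 78.1% of the A20ZF7 UMIs. In WT the intervals of fibroblasts (138 to 156 CPM) and endothelial cells (89.6 to 141 CPM) overlapped, and in A20ZF7 they did not.

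Fas, the receptor for Fas ligand and the best known inducer of cell death in the family, had a different leading class in each library. In WT it was highest in endothelial cells, at 93.0 CPM, against 30.1 CPM in regulatory T cells, which rested on 3 UMIs. In A20ZF7 regulatory T cells were at 65.0 CPM and endothelial cells at 62.0 CPM, and their intervals overlapped (52.4 to 79.7 and 51.8 to 73.8 CPM). Tnfrsf25, the death domain receptor for the cytokine TL1A, was led by ILC3s and γδ T cells. The levels in ILC3s were 88.4 CPM in WT and 63.9 CPM in A20ZF7, and those in γδ T cells were 86.1 and 68.5 CPM. The order of these 2 classes was opposite in the libraries, with overlapping intervals in both.

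Tnfrsf1b encodes TNFR2, which lacks a death domain and is prominent on regulatory T cells. Regulatory T cells had 542 CPM in WT and 458 CPM in A20ZF7. The next class in WT was Th1 or NKT cells at 267 CPM, and in A20ZF7 Th17 cells at 301 CPM, and both lay below the interval of regulatory T cells. Tnfrsf4 in regulatory T cells was 632 CPM in WT and 579 CPM in A20ZF7, and Tnfrsf9 was 883 and 674 CPM. Each was more than the level of any other class of its library by more than counting error. The next classes for Tnfrsf4 were Th17 cells in WT, at 228 CPM, and Th1 or NKT cells in A20ZF7, at 201 CPM. Tnfrsf18 was 381 CPM in WT and 296 CPM in A20ZF7 regulatory T cells. Dividing T cells came next in WT at 149 CPM, from 9 UMIs, with an interval of 68.1 to 283 CPM that met that of regulatory T cells (270 to 524 CPM). Tnfrsf4 and Tnfrsf9 were also among the 10 leading genes of the regulatory T cell cluster, although they were kept out of the clustering. T cells held 50.7% of the WT and 51.8% of the A20ZF7 UMIs of Tnfrsf4, and 35.5% and 46.6% of those of Tnfrsf9, shares that depend on how many cells of each class the selection left.

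The remaining members had other leaders. Cd40, the receptor through which antigen-presenting cells receive help from CD40 ligand, was highest in macrophages or monocytes, at 53.6 CPM in WT and 49.4 CPM in A20ZF7. The next class was endothelial cells at 10.2 and 6.79 CPM, below the macrophage interval in both libraries. The 0 UMIs of Cd40 in WT T cells and the 0.575 CPM in A20ZF7 T cells place the transcript near the floor there. Ltbr, the lymphotoxin β receptor that organises lymphoid tissue from the stromal side, was highest in epithelial cells (47.2 CPM in WT and 38.2 CPM in A20ZF7) and next in fibroblasts (45.0 and 37.8 CPM), which did not differ beyond counting error. It was at 1.85 and 1.37 CPM in T cells. Tnfrsf26 was highest in naive or central memory T cells, at 27.8 CPM from 8 UMIs in WT and 42.2 CPM in A20ZF7.

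**Figure D1:**
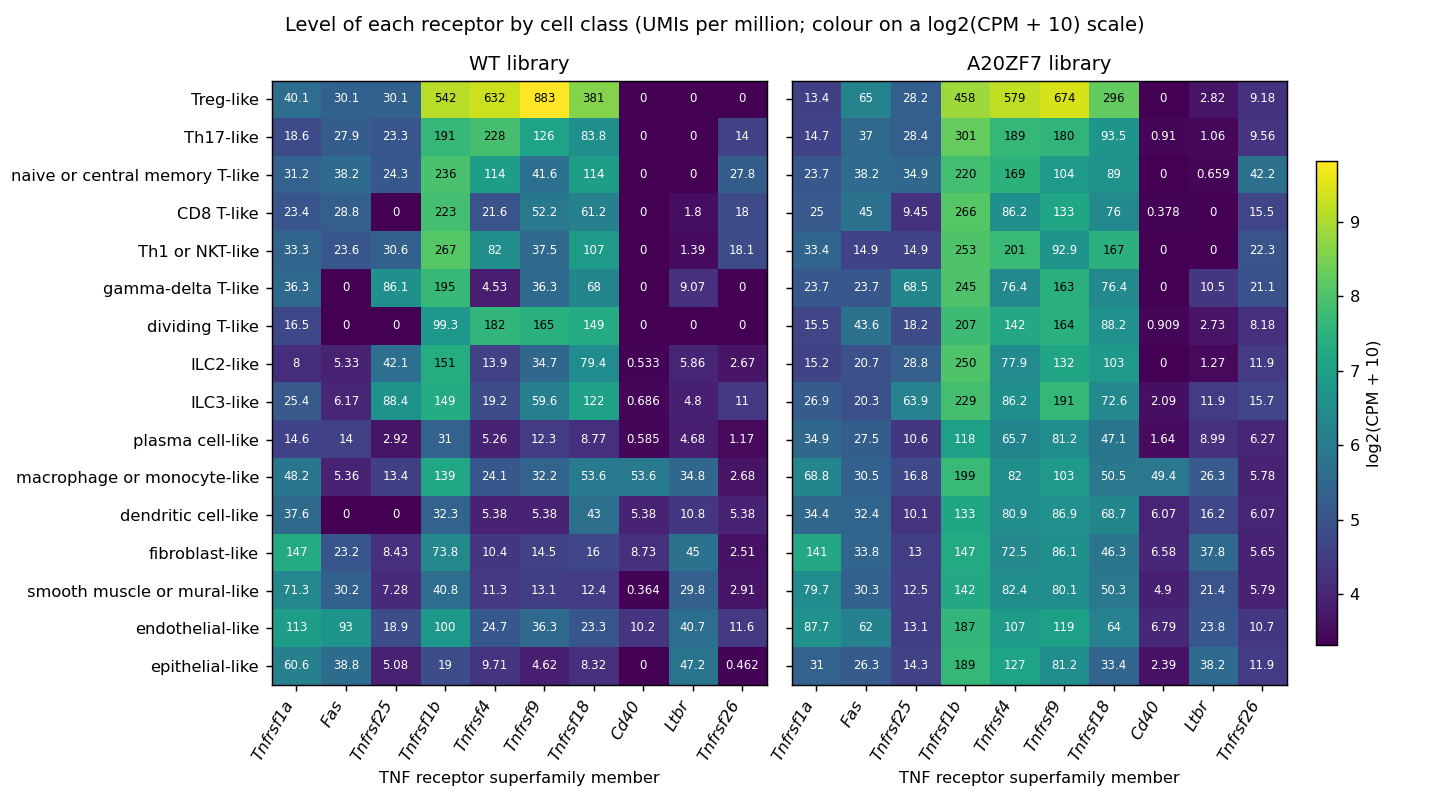
Level of the 10 receptors in 16 cell classes of the WT and A20ZF7 libraries, as CPM (numbers in the cells) with colour on the log2(CPM + 10) scale. Tnfrsf1b, Tnfrsf4, Tnfrsf9 and Tnfrsf18 are highest in regulatory T cells in both libraries, Tnfrsf1a in fibroblasts and Cd40 in macrophages or monocytes.

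The question put to the libraries was how the mutant A20 changes gene expression in the cells of the lamina propria. In T cells, Tnfrsf9 and Tnfrsf4 had the largest upward ratios of A20ZF7 over WT among the members with UMIs in both libraries. Tnfrsf9 was 93.1 CPM in WT and 210 CPM in A20ZF7 T cells, a ratio of 2.25 (1.95 to 2.61). Tnfrsf4 was 106 and 200 CPM, a ratio of 1.90 (1.66 to 2.18). Fas was 24.5 and 41.2 CPM, a ratio of 1.68 (1.27 to 2.27), and Tnfrsf1b was 245 and 291 CPM, a ratio of 1.19 (1.09 to 1.31). Tnfrsf1a went the other way, from 29.2 to 18.2 CPM, a ratio of 0.623 (0.471 to 0.835). The intervals of Tnfrsf18 (104 and 111 CPM), Tnfrsf25 (25.9 and 25.5 CPM) and Tnfrsf26 (15.7 and 14.7 CPM) included a ratio of 1. Counted at 2-fold, 1 of the 8 members with enough UMIs, Tnfrsf9, was past the fold upwards, where 4.67% of 9695 genes were, and 0 were past it downwards, where 1.73% of genes were. Tnfrsf9 fell short of 2-fold with cells of at least 1000 UMIs and with a minimum of 200 genes alone, where its ratio was 1.68. The median ratio of the tested members was 1.13, beside 1.03 for all genes tested.

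The WT pool allowed its mice to be separated by hashtag antibodies, and the A20ZF7 pool did not. Tnfrsf4 was 109 CPM in T cells of the hashtag 7 mouse and 99.6 CPM in those of the hashtag 8 mouse, both below the 200 CPM of A20ZF7. Tnfrsf9 was 96.6 and 97.5 CPM in the WT mice, both below 210 CPM. For Fas the values were 30.5 and 22.3 CPM, and for Tnfrsf1a 31.8 and 30.5 CPM, below and above the A20ZF7 values in turn. A20ZF7 lay above both WT mice for 6 of the 10 members in T cells, 8 in ILCs, 9 in B lineage cells, 7 in myeloid cells and 8 in stromal cells, and below both for 1, 2, 0, 0 and 0. These counts include members near the floor, such as Cd40 with 0 UMIs in WT T cells. The share of all genes above both mice was not computed. Against the whole WT library, 55.6%, 51.4%, 89.9%, 61.5% and 42.6% of the genes tested in these classes had a ratio above 1. Of the tested members 5 of 8, 7 of 9, 8 of 8, 7 of 8 and 8 of 10 did. Of the WT cells, 3476 carried hashtag 7, 4086 hashtag 8 and 7160 neither. The mice of 1 pool shared a library and are not replicates of it.

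The T cell classes did not share the difference. In regulatory T cells (102 WT and 1832 A20ZF7 cells), where Tnfrsf4 and Tnfrsf9 were highest, both were lower in A20ZF7, at ratios of 0.916 (0.708 to 1.2) and 0.764 (0.613 to 0.961). Tnfrsf18 was at 0.776 and Tnfrsf1b at 0.846 in the same cells. In CD8 T cells (585 and 3646 cells) Tnfrsf4 was 21.6 and 86.2 CPM, a ratio of 3.99 (2.24 to 7.84), and Tnfrsf9 was 52.2 and 133 CPM, a ratio of 2.56 (1.75 to 3.87). Th1 or NKT cells showed the same direction, with 82.0 and 201 CPM of Tnfrsf4, a ratio of 2.45 (1.66 to 3.6), and 37.5 and 92.9 CPM of Tnfrsf9, a ratio of 2.48 (1.38 to 4.43). In γδ T cells Tnfrsf9 was 36.3 and 163 CPM, a ratio of 4.51 (2.15 to 10.9). Naive or central memory T cells had 41.6 and 104 CPM of Tnfrsf9, a ratio of 2.49 (1.38 to 4.92), and 114 and 169 CPM of Tnfrsf4. In Th17 cells (155 and 6599 cells), the helper cells that make IL-17, Tnfrsf1b was 191 and 301 CPM, a ratio of 1.58 (1.16 to 2.20), whereas Tnfrsf4 was 228 and 189 CPM and Tnfrsf9 126 and 180 CPM, with intervals that included 1. The Th17 class was made of unequal parts, since 121 of the 155 WT cells but 3127 of the A20ZF7 cells were in 1 of its 2 clusters. The differences between classes in these ratios were not tested. In A20ZF7, droplets without a cell carried 69.7 CPM of Tnfrsf4 and 126 CPM of Tnfrsf9. The A20ZF7 levels in CD8 T cells were near these, while Tnfrsf4 in Th1 or NKT cells lay above. Taking the level of these droplets off T cells as a whole removed 0.058 of their profile in WT and 0.069 in A20ZF7. Tnfrsf9 then stayed past 2-fold upwards in T cells, where 4.64% of genes were. How far free RNA added to the levels of single T cell classes was not tested.

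The size of the T cell difference depended on how the T cell classes were weighted. When the levels of the 7 named T cell classes in A20ZF7 were weighted by the class totals of WT, Tnfrsf4 was 169 CPM, a ratio of 1.60 to WT, and Tnfrsf9 was 149 CPM, a ratio of 1.61. With the weighting reversed, the WT classes at the makeup of A20ZF7 gave 205 CPM of Tnfrsf4, so that the ratio of A20ZF7 to it was 0.977, and 179 CPM of Tnfrsf9, a ratio of 1.17. Fas kept ratios of 1.30 and 1.56 under the 2 weightings. The WT levels in this second weighting rest on 102 regulatory T cells and 155 Th17 cells. When the 8 clusters of these classes were weighted instead, WT at the makeup of A20ZF7 gave 185 CPM of Tnfrsf4 and 165 CPM of Tnfrsf9. The ratios of A20ZF7 to these were 1.08 and 1.27, and at the makeup of WT they were 1.61 and 1.62. In that weighting 1 of the 2 Th17 clusters held 34 WT cells.

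**Figure D2:**
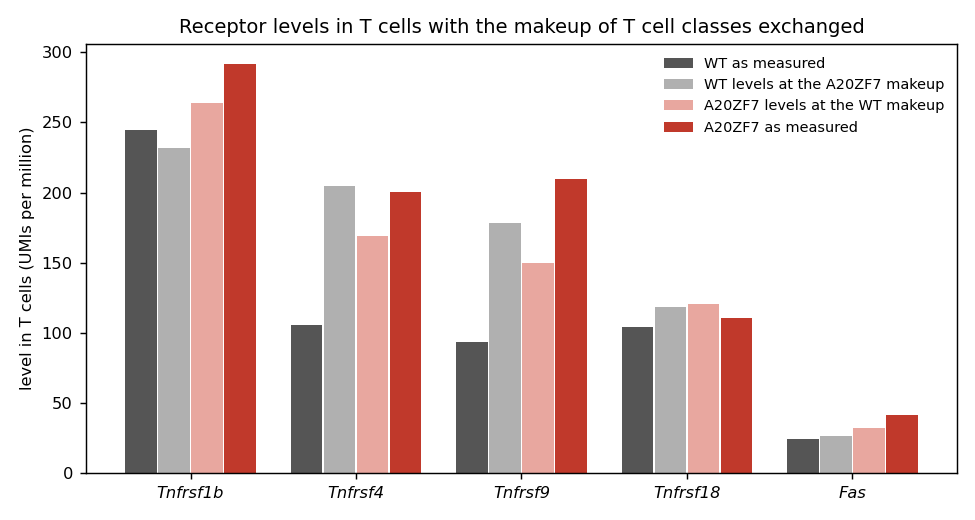
T cell level (CPM) of Tnfrsf1b, Tnfrsf4, Tnfrsf9, Tnfrsf18 and Fas in WT, in WT weighted to the T cell class makeup of A20ZF7, in A20ZF7 weighted to the makeup of WT, and in A20ZF7. For Tnfrsf4 the WT bar rises from 106 to 205 CPM when weighted to the makeup of A20ZF7, beside 200 CPM measured in A20ZF7.

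In ILCs, Tnfrsf4, Tnfrsf9 and Fas had the largest ratios. Tnfrsf4 was 16.2 CPM in WT and 82.5 CPM in A20ZF7, a ratio of 5.09 (3.83 to 6.89). Tnfrsf9 was 45.6 and 165 CPM, a ratio of 3.61 (3.03 to 4.32). Fas was 5.70 and 20.5 CPM, a ratio of 3.59. Together with Tnfrsf26 (6.30 and 14.0 CPM, a ratio of 2.22) they made 4 of 9 tested members past 2-fold upwards, where 4.91% of 10846 genes were. Downwards 0 members were past the fold, where 3.11% of genes were. Tnfrsf1b was 151 and 239 CPM, a ratio of 1.58 (1.43 to 1.76), and Tnfrsf1a 15.6 and 21.6 CPM, whereas Tnfrsf18 over all ILCs was 98.1 and 86.5 CPM and Tnfrsf25 62.4 and 48.0 CPM, a ratio of 0.77. The median ratio of the tested members was 1.58, beside 1.01 for all genes tested. The summed T cell genes of the ILC class were 1.44 times as high in A20ZF7, and the WT mice had 19.8 and 21.7 CPM of Tnfrsf4 and 43.7 and 53.5 CPM of Tnfrsf9.

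In ILC2s and ILC3s, the ILCs that make type 2 cytokines and IL-22 respectively, some values of the other members depended on the clusters behind each name. Among those below, Tnfrsf18 in ILC2s and Ltbr in ILC3s did so. The ratio of Tnfrsf25 over all ILCs stayed below 1 when weighted to equal clusters, at 0.613 or 0.496 for the makeup of WT or of A20ZF7. Tnfrsf18 was 79.4 and 103 CPM in ILC2s, a ratio of 1.30 (1.06 to 1.60), and 122 and 72.6 CPM in ILC3s, a ratio of 0.595 (0.485 to 0.731). Within the cluster that held 2254 of the 2311 A20ZF7 ILC2s it was 193 and 104 CPM, a ratio of 0.542 (0.419 to 0.707), opposite to the ratio of the whole class, and within the cluster of 3171 of the 3340 A20ZF7 ILC3s the ratio was 0.586. Tnfrsf25 was lower in both, at 42.1 and 28.8 CPM in ILC2s, a ratio of 0.683 (0.487 to 0.957), and at a ratio of 0.722 (0.574 to 0.912) in ILC3s. Ltbr was 4.80 and 11.9 CPM in ILC3s and 5.86 and 1.27 CPM in ILC2s, but within that ILC3 cluster it was 13.2 CPM, from 3 UMIs, and 12.1 CPM, a ratio of 0.916 (0.287 to 4.67). Tnfrsf4 and Tnfrsf9 were higher in A20ZF7 in each: 13.9 and 77.9 CPM, and 34.7 and 132 CPM, in ILC2s, and 19.2 and 86.2 CPM, and 59.6 and 191 CPM, in ILC3s. Different clusters held most of each name in the 2 libraries, with 1270 of 1683 WT ILC2s in a cluster that held 57 A20ZF7 cells and 1148 of 1378 WT ILC3s in a cluster that held 169. Weighted to equal clusters, the ratio of Tnfrsf4 in ILCs was 3.28 or 2.55 and that of Tnfrsf9 was 2.97 or 2.23, at the makeup of WT or of A20ZF7.

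**Figure D3:**
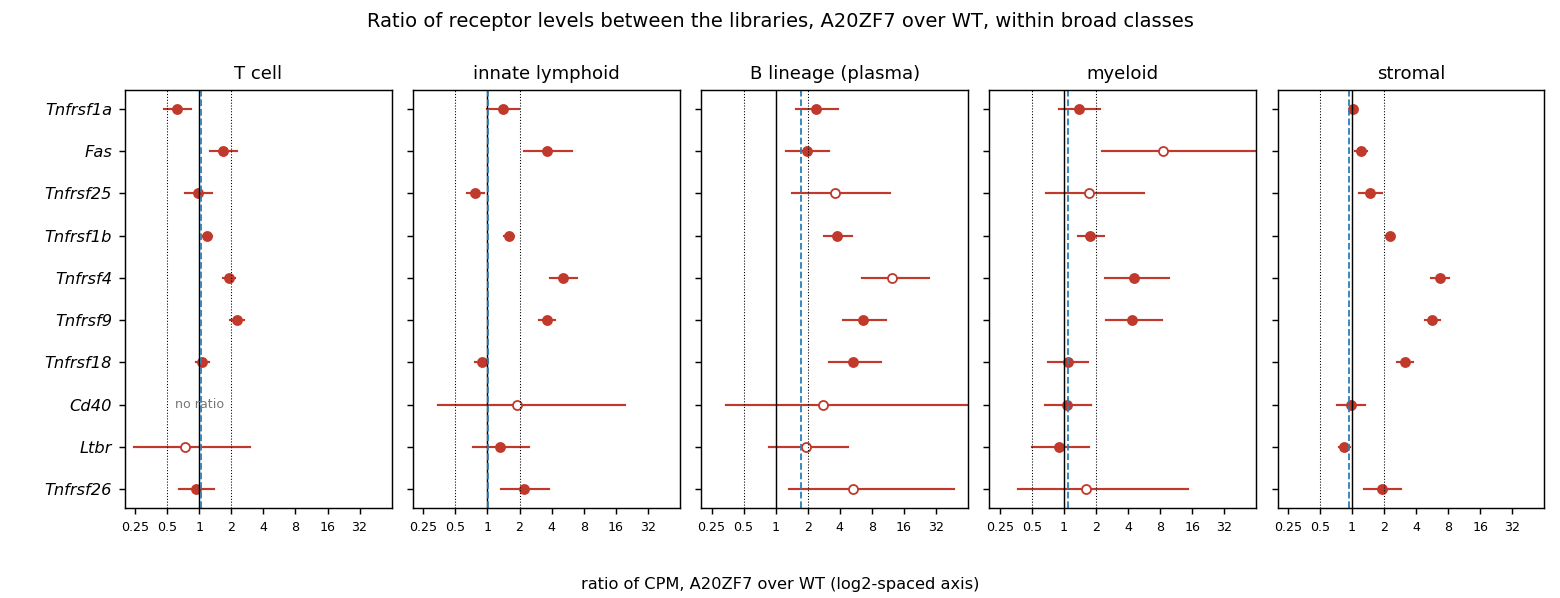
Ratio of A20ZF7 over WT level of each receptor in 5 broad cell classes, on a log2-spaced axis, with 95% exact intervals for counting error. Open circles had under 10 UMIs in a library, the solid line marks 1, the dotted lines 0.5 and 2, and the dashed blue line the median ratio of all genes (1.74 in B lineage cells, 0.947 in stromal cells). Tnfrsf4 and Tnfrsf9 lie to the right of that line in all 5 classes.

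Stromal cells had ratios in the same direction for Tnfrsf4 and Tnfrsf9, together with Tnfrsf18 and Tnfrsf1b. Tnfrsf4 in stromal cells was 11.6 CPM in WT and 77.3 CPM in A20ZF7, a ratio of 6.64. Tnfrsf9 was 15.6 and 89.1 CPM, a ratio of 5.70. Tnfrsf18 was 15.6 and 48.6 CPM, a ratio of 3.13, and Tnfrsf1b 66.6 and 150 CPM, a ratio of 2.26. These were 4 of 10 members past 2-fold upwards, where 7.22% of 14576 genes were, and 0 were past it downwards, where 6.49% of genes were. The receptors whose UMIs were held mainly by stromal cells had ratios nearer to 1. Tnfrsf1a was 124 and 128 CPM, a ratio of 1.03 (0.964 to 1.11), Ltbr 40.5 and 34.4 CPM, a ratio of 0.848 (0.749 to 0.961), and Fas 29.8 and 36.3 CPM, a ratio of 1.22 (1.06 to 1.40). Cd40, at 6.55 and 6.40 CPM, was level as well, and Tnfrsf25 (8.80 and 12.9 CPM) and Tnfrsf26 (3.23 and 6.19 CPM) had ratios of 1.47 and 1.92. The median ratio of the members was 1.69, beside 0.947 for all genes tested.

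The T cell genes moved with these values. Cd3e, a chain of the T cell receptor complex that stromal cells do not make, was 84.3 CPM in WT and 277 CPM in A20ZF7 stromal cells, a ratio of 3.28, and the sum of the 5 T cell genes had a ratio of 3.06. Taken as a share of the level in T cells of the same library, stromal Tnfrsf4 was 11% in WT and 38.6% in A20ZF7, close to the 11.4% and 37.3% of the summed T cell genes. Tnfrsf9 was 16.8% and 42.5%, Tnfrsf18 15% and 43.9%, and Tnfrsf1b 27.2% and 51.6%. By contrast Tnfrsf1a in stromal cells was 425% and 704% of its T cell level. When the T cell level was taken off each class in proportion to its T cell genes, a step chosen after the data were seen, stromal Tnfrsf4 came to 0 CPM in WT and 2.52 CPM in A20ZF7, and Tnfrsf9 to 5.06 and 10.9 CPM. Tnfrsf1b came to 38.8 and 41.6 CPM, and Tnfrsf1a stayed at 121 and 121 CPM. Stromal Fas came to 27.0 and 20.9 CPM, with the A20ZF7 level then the lower. In ILCs the same step left 0 CPM of Tnfrsf4 and 0 CPM of Fas in both libraries, 14.2 and 55.4 CPM of Tnfrsf9, and 63.1 and 28.8 CPM of Tnfrsf18. A level below the amount taken off was set to 0. The step took off 0.337 of the T cell profile in WT and 0.521 in A20ZF7 ILCs. In WT ILCs Trbc2 was at 65.6% of its T cell level but Trac at 23.7%. After the step, with the totals kept, 14.7% of all genes in ILCs were past 2-fold downwards, against 3.11% before it. Whether it took off too much in ILCs was not tested. Taking off the level of empty barcodes, an alternative that was planned, gave other values in stromal cells. Tnfrsf1b, Tnfrsf4, Tnfrsf9 and Tnfrsf18 all stayed past 2-fold upwards, where 6.80% of genes were. The ratios were then 9.22 for Tnfrsf4, 6.60 for Tnfrsf9 and 3.92 for Tnfrsf18. Whether free RNA from T cells made the ratios outside T cells was not tested beyond these values.

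**Figure D4:**
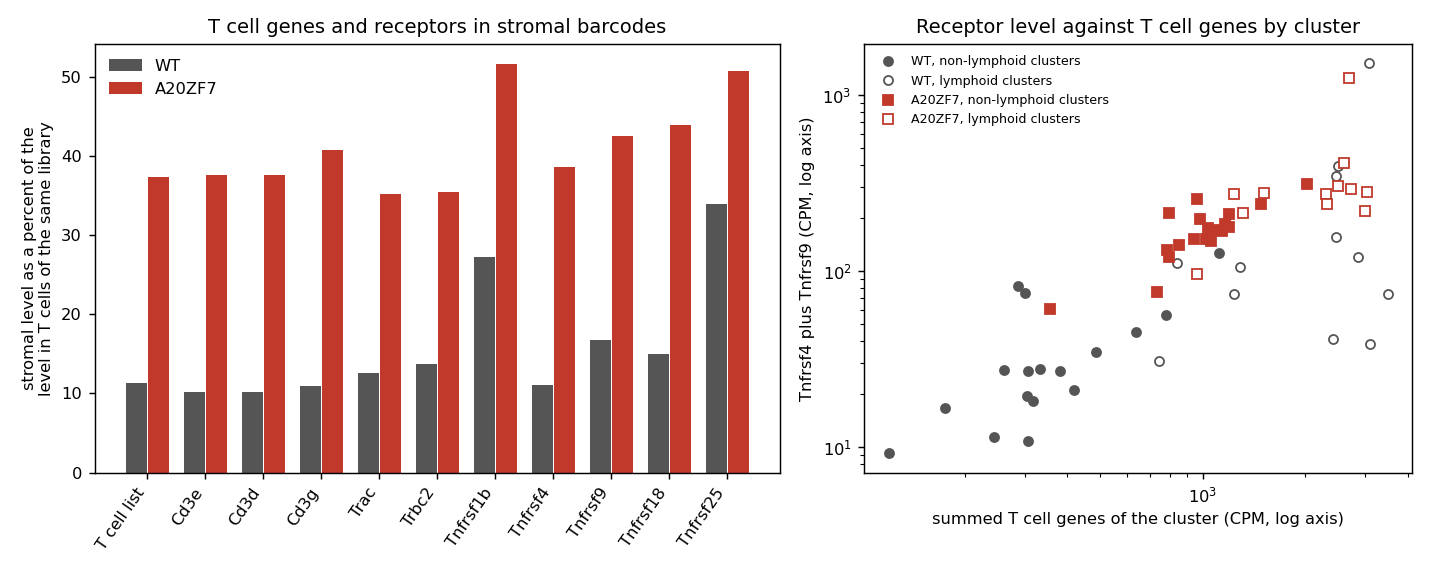
Left, stromal level of T cell genes and of 5 receptors as a percentage of their level in T cells of the same library. Right, the sum of Tnfrsf4 and Tnfrsf9 against the summed T cell genes (CPM, log axes) for each cluster of at least 20 cells, with filled points for non-lymphoid and open points for lymphoid clusters. Stromal Tnfrsf4 goes from 11% in WT to 38.6% in A20ZF7, and the summed T cell genes from 11.4% to 37.3%.

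The WT stromal cells showed the same joint movement within a library. Cells with hashtag 7 had 590 CPM of the summed T cell genes and those with hashtag 8 had 552 CPM, whereas the 4916 cells called for no hashtag had 141 CPM. Tnfrsf4 was 20.4, 20.6 and 4.70 CPM in these cells, Tnfrsf9 29.9, 26.1 and 6.10 CPM, and Tnfrsf18 28, 29.9 and 5.05 CPM. The cells without a hashtag were thus lowest for each of the 3 receptors and for the T cell genes. Tnfrsf1a was 117, 113 and 131 CPM and did not follow them.

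Plasma cells, which should lack most of these receptors, had 5.26 CPM of Tnfrsf4 in WT and 65.7 CPM in A20ZF7, a ratio of 12.5, with the summed T cell genes up 4.29 times. Tnfrsf9 was 12.3 and 81.2 CPM, a ratio of 6.61, and Tnfrsf1a 14.6 and 34.9 CPM, a ratio of 2.39. The class lay in 2 clusters that held 169 and 398 WT cells but 1426 and 899 A20ZF7 cells, and within them the ratio of Tnfrsf1a was 1.16 (0.691 to 2.05) and 1.38 (0.540 to 3.80). Tnfrsf1b was 31.0 and 118 CPM, a ratio of 3.81, Tnfrsf18 8.77 and 47.1 CPM, a ratio of 5.38, and Tnfrsf25 2.92 and 10.6 CPM, a ratio of 3.64. With these, 6 of 8 members were past 2-fold upwards, where 35.1% of 9499 genes were, and the median ratio of all genes was 1.74, so the class as a whole was shifted. With mitochondrial, ribosomal, immunoglobulin and haemoglobin genes left out of the total, 4 members (Tnfrsf1b, Tnfrsf4, Tnfrsf9 and Tnfrsf18) and 8.09% of genes were past it, and after scaling by the median gene ratio the same 4 and 6.78% of genes. Downwards 0 members were past the fold, where 1.52% of genes were.

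In myeloid cells Cd40 was 37.2 CPM in WT and 39.9 CPM in A20ZF7, and Ltbr was 26.6 and 23.9 CPM. The members past 2-fold upwards were 3 of 8, where 5.48% of 7177 genes were: Tnfrsf4 (17.7 and 81.5 CPM, a ratio of 4.6), Tnfrsf9 (23.1 and 101 CPM, a ratio of 4.38) and Fas (3.55 and 30.5 CPM, from 2 UMIs in WT). Downwards 0 were past it, where 1.91% of genes were. Tnfrsf1b was 105 and 185 CPM, a ratio of 1.77, Tnfrsf1a 44.3 and 61.4 CPM, and Tnfrsf18 49.7 and 53.9 CPM. The median ratio of the tested members was 1.58, beside 1.08 for all genes. The summed T cell genes of the class were 1.87 times as high in A20ZF7.

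Barcodes with at most 100 UMIs, which stand for droplets without a cell, carried the receptors too. Tnfrsf9 was 40.4 CPM in WT and 126 CPM in A20ZF7 empties, a ratio of 3.12. Tnfrsf4 was 33.6 and 69.7 CPM, Tnfrsf1b 76.1 and 179 CPM, and Fas 16.8 and 35.1 CPM. Cd3e in the same barcodes was 205 and 283 CPM, a ratio of 1.38, so the free RNA of the libraries differed more in Tnfrsf9 than in this T cell gene. Tnfrsf18 was 37.4 and 44.0 CPM, a ratio of 1.18.

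Shares of cells with a UMI kept their order between libraries when cells were thinned to 500 UMIs. Shallower cells were left out, which were 0 WT and 3786 A20ZF7 T cells, 411 of them regulatory T cells, and 0 WT and 156 A20ZF7 plasma cells. In regulatory T cells 46.1% of WT and 34.5% of A20ZF7 cells had a UMI of Tnfrsf9, and 31.4% and 25.9% after thinning. For Tnfrsf4 the shares were 42.2% and 31.3%, and 28.4% and 22.6% thinned. Over all T cells Tnfrsf4 was found in 7.47% and 13.5% of cells, and in 4.07% and 8.71% thinned. Tnfrsf9 was found in 5.82% and 13.4% of T cells, and in 3.27% and 9.04% thinned. Plasma cells, taken as a class that should lack the gene, had a UMI of Tnfrsf9 in 3.0% and 10.6% of cells, and in 0.176% and 4.38% thinned. The median depth was 819 and 684 UMIs in T cells and 2801 and 1187 UMIs in plasma cells.

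Antibody counts could be used for WT alone. The antibody count files of the genotypes were identical in 3 of 3 files. They matched the WT barcodes (a median of 2079 antibody UMIs there against 48 at A20ZF7 barcodes). The antibody to OX40 (CD134) had a median of 74 counts in T cells, 71 in ILCs, 74 in B lineage, 76 in myeloid and 78 in stromal cells. The antibody to 4-1BB (CD137) had medians of 28, 27, 27, 30 and 29, and that to CD40 of 11, 11, 11, 12 and 12. Fas was at 8 in every class and GITR (CD357) at 1, against a highest isotype control median of 5. The medians of T cells and stromal cells lay close together for all 5 antibodies. Over 138 antibodies the share of counts in T cells over that in stromal cells ran from 0.358 to 3.21 with a median of 1.04. CD5, a T cell protein, was the highest at 3.21, while the T cell proteins CD4 and CD3 were at 2.35 and 1.19. OX40 was at 1.05 and 4-1BB at 1.04. As CD3 itself was little higher in T cells, the close values of OX40 and 4-1BB do not show that their surface protein was alike. Regulatory T cells ranked highest of the classes for Tnfrsf4 RNA, and for the OX40 antibody they were 2 of 17 by mean count and 12 of 17 relative to the isotype controls. For 4-1BB they ranked highest in Tnfrsf9 RNA and 2 of 17 in the antibody by both measures.

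**Figure D5:**
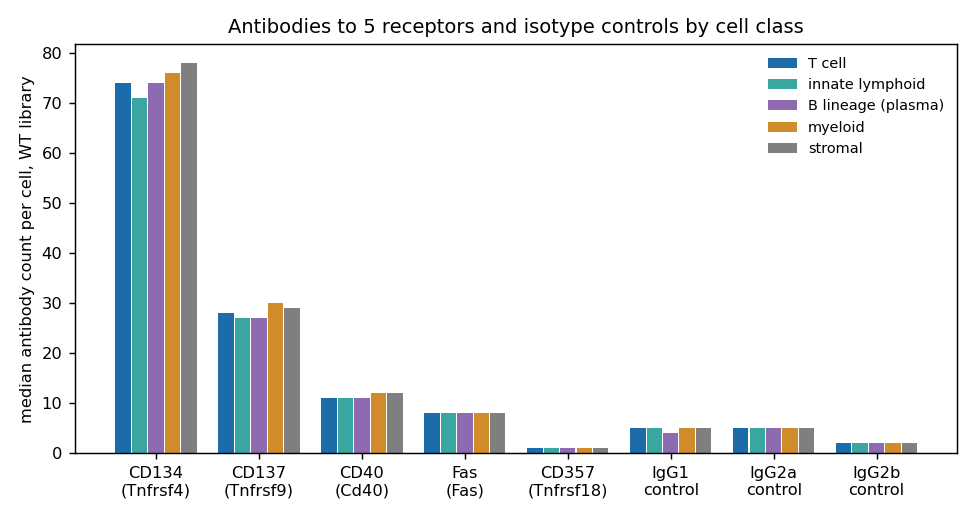
Median antibody count per cell for 5 receptors and the highest isotype control in 5 broad cell classes of the WT library. The OX40 antibody has medians from 71 to 78 and the 4-1BB antibody from 27 to 30, with little difference between classes.

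The ligands of these receptors that were past 2-fold in T cells and ILCs were mainly lower in A20ZF7. Of 10 ligand genes, 3 of the 6 tested in T cells were past 2-fold downwards, where 1.73% of all genes were, and 1 upwards, where 4.67% were. Tnfsf14, the ligand LIGHT that binds the lymphotoxin β receptor, was 14.4 CPM in WT and 5.46 CPM in A20ZF7 T cells, a ratio of 0.38. Tnf was 30.1 and 12.7 CPM, a ratio of 0.422, and Fasl 87.1 and 40.5 CPM, a ratio of 0.465. Tnfsf4, the ligand of OX40, was 1.39 and 6.04 CPM, from 3 UMIs in WT. In ILCs 2 of 7 were past 2-fold downwards, where 3.11% of all genes were: Tnfsf9, the ligand of 4-1BB, at 8.70 and 2.30 CPM, a ratio of 0.264, and Tnf at 48.9 and 20.5 CPM, a ratio of 0.419. In stromal cells 1 of 8, Tnfsf4, was past 2-fold upwards, where 7.22% of all genes were. In plasma cells 4 of 4 (Tnf, Ltb, Cd40lg and Fasl) were, where 35.1% of all genes were past it and the T cell genes were 4.29 times as high. In myeloid cells 0 of 4 were, where 5.48% of all genes were. Tnf and Fasl were named after their values were seen. The ligand ratios were not weighted to an equal makeup of classes. Th1 or NKT cells, for example, were 812 of 2235 WT but 404 of 16019 A20ZF7 T cells.

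Among 18 other receptors of the family, Tnfrsf8, which encodes CD30, was the 1 of 5 tested in T cells that was past 2-fold upwards, where 4.67% of all genes were. It was at 2.32 CPM in WT, from 5 UMIs, and 16.5 CPM in A20ZF7. Cd27, a co-stimulatory receptor of T cells, was 9.90 and 29.3 CPM in ILCs, a ratio of 2.96, and 3.03 and 16 CPM in stromal cells, a ratio of 5.29. Of 8 tested in ILCs 2 were past 2-fold upwards, Cd27 and Tnfrsf22, where 4.91% of all genes were. Downwards 1 was, Tnfrsf11a, which encodes RANK, at 18.0 and 8.61 CPM, where 3.11% of all genes were. In stromal cells, where 7.22% of all genes were past it upwards, 4 of 15 were, Tnfrsf8, Cd27, Tnfrsf23 and Tnfrsf13b, the last at 2.45 and 9.95 CPM. In plasma cells 1 of 4, Cd27, was past it upwards, where 35.1% of all genes were, and in myeloid cells 0 of 2, where 5.48% were. Tnfrsf22, Tnfrsf23 and Tnfrsf11a were named after their values were seen.

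Profiles over 32 points, the 16 cell classes of each library, grouped the members. Points share 2 libraries and their free RNA, and the values of r below describe log2(CPM + 10) without a test. Tnfrsf4 and Tnfrsf9 went together at r = 0.887, Tnfrsf1b and Tnfrsf9 at 0.825, Tnfrsf1b and Tnfrsf18 at 0.823, and Tnfrsf1a and Ltbr at 0.773, while Tnfrsf18 and Ltbr were opposed at −0.705. Among 4717 other genes, Hopx was in the 3 most alike for both Tnfrsf4 (r = 0.882, after Fam169b at 0.933 and before Gm20275) and Tnfrsf9 (r = 0.939, before Tiam1 and Eea1). Tnfrsf1b was most like Zfp831 (r = 0.942), Ubash3b and Camk4, and Tnfrsf18 most like Arhgef1 (r = 0.909), Fam107b and Kdm2b. Cd40 followed the macrophage genes Apoe (r = 0.953), C5ar1 and Il1b. Tnfrsf1a was most like Mxra7 (r = 0.881), Id3 and Amotl2, and Ltbr most like Sh3d19, Lamp1 and Mgst1. Tnfrsf25 was most like Ltb4r1 (r = 0.897), Tmem64 and Ppfia1. The weakest likenesses were those of Tnfrsf26, to Bach2 (r = 0.793), Nlk and Bcl2l11, and of Fas, to Pde4d (r = 0.807), Ano6 and Ehd3.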

How the data were processed

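Single-cell gene expression and antibody libraries of WT and A20ZF7 lamina propria cells were used, 1 library per genotype, each from 2 pooled mice. The authors ran Cell Ranger (version 7.1 in the submitters' processing notes, 8.0.0 in the header of the gene expression matrix) on mm10 and deposited raw UMI counts for each gene or antibody, with no filter on cells. The gene lists differed (33696 and 32285 identifiers), and 31950 shared identifiers were used. The A20ZF7 antibody files, identical to those of WT, were not used.

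Cells had at least 200 and at most 2500 genes, at most 15% mitochondrial UMIs and at least 676 (WT) or 396 (A20ZF7) UMIs, and 2547 WT barcodes with 2 hashtags were removed as doublets. A20ZF7 had no hashtag calls, so 0 barcodes were removed there in this way. The libraries were thus filtered for doublets unequally. What this did to the ratios was not tested, apart from the removal of Scrublet doublets as an alternative. Library totals over shared genes were 35171651 and 52727058 UMIs. Clusters were made with Seurat 5.3.0 in R 4.3.3 (2000 variable genes, 30 components, resolution 0.8) and named by marker lists. UMIs were summed per class and library and given as counts per 1000000 UMIs (CPM) with exact Poisson intervals, ratios with exact conditional intervals and shares with exact binomial intervals (scipy 1.17.1), all at 95%. A gene was counted as tested with at least 10 UMIs expected in each library at the pooled rate, and as past the fold at a ratio of 2 or more, or 0.5 or less. No significance test was possible. The calculation was tested on simulated data. The 10 receptors and the gene lists were chosen with earlier results of these data known. All 10 receptors were named in each class, other family genes where past 2-fold in T cells, ILCs or stromal cells with at least 20 UMIs in the higher genotype, at most 6 by size, and the 3 genes of highest r for each receptor.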

Additional observations from a re-analysis of the deposited data

Results flagged for a closer look

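For 6 receptors the ratio of A20ZF7 over WT had an interval above 1 in 1 cell class and below 1 in another. The share of all genes that meet this rule was not computed, so the count of 6 cannot be judged. In plasma cells, for example, 89.9% of all genes tested had a ratio above 1. The pair of classes given is the one with the largest and the smallest such ratio, and in each case the difference was not tested. Tnfrsf1a had a ratio of 2.39 in plasma cells and of 0.513 in epithelial cells, but within the 2 plasma cell clusters the ratios were 1.16 and 1.38, with intervals that included 1. Tnfrsf9 had a ratio of 17.6 in epithelial cells, from 10 UMIs in WT, and of 0.764 in regulatory T cells. Of the epithelial cells, 496 of 579 in WT and 78 of 326 in A20ZF7 were in 1 cluster and the others in a second with more T cell RNA, and within these clusters the ratio was 2.81 and 2.22, with intervals that included 1. Tnfrsf18 was at 5.38 in plasma cells and 0.595 in ILC3s, and Tnfrsf25 was at 3.64 in plasma cells and 0.683 in ILC2s. Ltbr was at 2.47 in ILC3s and 0.584 in endothelial cells, but at 0.916 (0.287 to 4.67) within the cluster that held most A20ZF7 and few WT ILC3s. Fas was at 5.69 in macrophages or monocytes and 0.667 in endothelial cells. In plasma cells, in both epithelial clusters and in macrophages or monocytes (782 CPM in WT and 1166 CPM in A20ZF7) the summed T cell genes were also higher in A20ZF7.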

How the results depend on the processing

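No paired analysis was possible because each genotype had 1 library. Of 138 counts of members past 2-fold under the alternatives, 126 were within 1.5 times the value given. Many of these were downward counts of 0 that stayed at 0, and a count could stay close while its members changed. Other values moved more often. The shares of UMIs in T cells left their interval in 35 cases and stayed in 5, with at least 1000 UMIs per cell or classes gated on marker UMIs. Shares of cells with a UMI did so in 35 and 5 cases when thinned, which lowers them. Ratios left their interval in 48 cases and stayed in 319, and 5 antibody values moved while 10 did not. Ratios were followed in T cells, ILCs and stromal cells, and there no ratio past 2-fold crossed to the other side of 1. Where a setting left 0 WT UMIs, as for Tnfrsf4 in ILCs and stromal cells with T cell RNA taken off, no ratio could be followed. Ratios short of 2-fold did cross 1: with T cell RNA taken off, stromal Fas went to 0.774, Tnfrsf25 to 0.586 and Tnfrsf26 to 0.501, and in ILCs Ltbr went to 0.683 with at least 1000 UMIs per cell and Tnfrsf18 to 1.19 under the gate. Ratios nearer to 1, such as those of Tnfrsf18, Tnfrsf25 and Tnfrsf26 in T cells, also did so. Where RNA was taken off, the class totals were kept. More T cell RNA was taken off in A20ZF7 than in WT in each class outside T cells. The ratios of that setting thus lean towards lower in A20ZF7. In T cells 2 members, Tnfrsf4 and Tnfrsf9, were past 2-fold upwards, in place of 1, when Scrublet doublets were removed. The same 2 were past it against the WT mouse of hashtag 8 alone, and 4.4% of genes were in each of these settings. Downwards 1 member, Tnfrsf1a, was past it when cells needed 200 genes alone, where 1.94% of genes were. In that setting, and with at least 1000 UMIs per cell, Tnfrsf9 was not past 2-fold in T cells and Fas was in its place, where 4.07% and 4.46% of genes were past it upwards. In ILCs 1 member was past it downwards with classes gated on marker UMIs (Tnfrsf25, where 3.18% of genes were) and with T cell RNA taken off (Tnfrsf18, where 14.7% were). With T cell RNA taken off, the ILC members past it upwards were Tnfrsf1a, Tnfrsf9 and Tnfrsf26, where 2.84% of genes were. In B lineage cells 0 of the 6 were left when the level of empty barcodes was taken off, where 17.9% of genes were past it upwards. That step took off 0.573 of the empty profile in WT but all of it (a scale of 1) in A20ZF7. The libraries were treated unequally there, so this count does not check the upward ratios. When T cell RNA was taken off, 1 (Tnfrsf1a) was left, where 10.4% of genes were. In myeloid cells the count went from 3 to 1 under the gate, where 7.88% of all genes were past the fold upwards. It went to 5 with empty barcodes taken off, where 50.1% of all genes were. In myeloid cells that step took off 0.959 of the empty profile in WT and 0.512 in A20ZF7, so this count is no check either. With T cell RNA taken off the myeloid count went to 0, where 2.43% of all genes were past the fold. In stromal cells it went from 4 to 2, Tnfrsf4 and Tnfrsf9, against the hashtag 8 mouse alone (3.54% of genes) and with T cell RNA taken off (1.89%). In the latter setting Tnfrsf4 was counted only because its WT level was set to 0 CPM, beside 2.52 CPM left in A20ZF7. Against the hashtag 7 mouse alone Tnfrsf4, Tnfrsf9 and Tnfrsf26 were past it, where 3.61% of genes were. Stromal Tnfrsf1b and Tnfrsf18 were thus past 2-fold against neither WT mouse alone. These settings also left out the 4916 WT stromal cells without a hashtag. Those cells had 141 CPM of the summed T cell genes, against 590 and 552 CPM in the cells of hashtags 7 and 8. Taking off T cell RNA was chosen after seeing the data, and the cause of these changes was not tested. The ratio of Tnfrsf9 ran from 1.68 to 2.51 in T cells, from 3.07 to 4.12 in ILCs and from 2.15 to 6.60 in stromal cells. Low levels were limited by depth: WT counts of Fas in myeloid cells and Tnfrsf4 in γδ T cells were 2 and 1 UMIs.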

Other observations

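Epithelial cells, 579 in WT and 326 in A20ZF7, are outside the 5 broad classes compared above. They lay in 2 clusters in unequal parts, with 496 WT and 78 A20ZF7 cells in the first and 83 and 248 in the second, where the summed T cell genes were 1118 and 2026 CPM against 120 and 733 CPM in the first. Tnfrsf1a was 60.6 CPM in WT and 31.0 CPM in A20ZF7 epithelial cells, Ltbr 47.2 and 38.2 CPM, and Fas 38.8 and 26.3 CPM. Tnfrsf4 was 9.71 and 127 CPM there, and Tnfrsf1b 19.0 and 189 CPM. Within the clusters the ratio of Tnfrsf4 was 9.73 and 2.70 and that of Tnfrsf1b 4.03 and 13.1, the last from 2 UMIs in WT. In endothelial cells, the class that led for Fas in WT, Fas was 93.0 and 62.0 CPM, a ratio of 0.667 (0.490 to 0.915), and Ltbr 40.7 and 23.8 CPM, a ratio of 0.584 (0.36 to 0.965).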
